A study of Mus musculus with 2 samples.

Results

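Alpha-1-antitrypsin is a secreted inhibitor of serine proteases that hepatocytes make in large amounts and release into the plasma, where neutrophil elastase is its main target. Mice carry several near-identical copies of the gene side by side, and 5 of them, Serpina1a, Serpina1b, Serpina1c, Serpina1d and Serpina1e, are described here out of 55415 genes in the count table. They were taken by gene symbol, and they were chosen because earlier counts of these same libraries had shown them, so their levels are given as a description with no test. The inhibitor offers a protease an exposed loop as bait, the reactive centre loop, and changes shape around the protease that cuts it. The new protein leaves the endoplasmic reticulum with the help of cargo receptors. Bile duct epithelium shares an embryonic precursor with hepatocytes but is known for keratins, osteopontin and transport proteins rather than for plasma proteins.

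The cells were biliary epithelial cells of mouse liver, which the series title calls intrahepatic, in 1 library labelled Sox9cKO and 1 labelled Sox9con. Sox9 is a transcription factor of these cells. The series compares cells lacking it with control cells, and strain, age, the Cre driver, the deleted exons and the number of animals in a library are not given in the sources used here. Whole fixed cells were barcoded by pooling and splitting, and transcripts were counted as UMIs, unique molecular identifiers that mark single molecules. Each group has 1 library, so the genotypes cannot be tested, and a difference between the libraries cannot be told apart from one between animals or preparations. After filtering, the Sox9cKO library held 2712 cells with a median of 5041 UMIs and the Sox9con library 3505 cells with a median of 3202. Sox9 itself had 1772 UMIs, or 120 CPM (UMIs scaled to the library total), in the library labelled Sox9cKO and 1780 UMIs, or 141 CPM, in the library labelled Sox9con. These counts cover the whole gene, so they do not show whether the deleted part is missing, and the genotypes rest on the labels.

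The copies differ little in sequence, which limits how far a short read can be assigned to 1 of them. In the GENCODE annotation of the GRCm38 build each has a transcript with a coding sequence of 1239 bases, and 86 of those positions differ between at least 2 copies. Pairwise identity of the coding sequences ran from 96.3% (Serpina1b and Serpina1e) to 98.5% (Serpina1a and Serpina1c). The differences are densest in coding bases 1101 to 1160, where 18 of 60 positions vary against a median of 4 over all windows of that length. This stretch codes for part of the reactive centre loop, and most of the 86 differing positions lie outside it. It is shown because it is where the copies can best be told apart, with capitals for bases that differ from the most common one. Where bases were equally common, that of the copy listed first is in lower case.
Serpina1a: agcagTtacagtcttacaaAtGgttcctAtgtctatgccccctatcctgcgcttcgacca
Serpina1b: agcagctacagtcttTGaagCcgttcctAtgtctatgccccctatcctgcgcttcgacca
Serpina1c: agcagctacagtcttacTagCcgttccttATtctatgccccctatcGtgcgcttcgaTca
Serpina1d: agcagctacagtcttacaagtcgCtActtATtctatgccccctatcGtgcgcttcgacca
Serpina1e: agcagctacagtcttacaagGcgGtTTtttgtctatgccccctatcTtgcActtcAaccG

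Of all stretches of 50 bases in its transcript, 26.7% of those of Serpina1c and 27.8% of those of Serpina1a occur in no other copy. The share was 52.0% for Serpina1d, 64.4% for Serpina1e and 65.8% for Serpina1b. How the authors treated reads that match several genes is not given in the sources used here. The level of a single copy is therefore uncertain, and the sum over the 5 copies is the firmer value.

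The sequences upstream of the 5 genes are also much alike. RefSeq places all of them on the minus strand of chromosome 12 in GRCm38.p6, and a run of 55 bases upstream of the transcription start is identical in every copy. The run ends 1 to 12 bases before the RefSeq start in 4 copies and 63 bases before it in Serpina1e. Serpina1c, the most counted copy, and Serpina1d, whose upstream stretch differs most from that of Serpina1a (6 of 110 bases), are shown because the copies were found in the same cells. Serpina1c lies at chr12:103904962-103905071 and Serpina1d at chr12:103773634-103773743. Capitals mark CCAAT on either strand, the letters of a common promoter element.
Serpina1c: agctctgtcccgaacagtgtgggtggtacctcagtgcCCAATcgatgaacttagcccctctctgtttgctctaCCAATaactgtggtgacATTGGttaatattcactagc
Serpina1d: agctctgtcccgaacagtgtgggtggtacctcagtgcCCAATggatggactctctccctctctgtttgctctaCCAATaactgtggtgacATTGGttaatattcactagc

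CCAAT was found in all 5 promoter windows and, on either strand, in 37.4% of 32851 promoter windows of the same length, while TATAAA (13.6% of all) and TTGCGCAA, the palindrome bound by C/EBP factors (0.183% of all), were in none of the 5. A match of letters is a description and does not show that a factor binds.

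Serpina1 transcripts were far more abundant in the library labelled Sox9cKO. The 5 copies together had 2149 UMIs there, or 145 CPM (exact 95% Poisson interval 139 to 152), against 92 UMIs, or 7.31 CPM (5.89 to 8.97), in the library labelled Sox9con. The ratio was 19.9-fold (exact conditional interval 16.1 to 24.8), or 4.31 on the log2 scale. These intervals, like all that follow, cover counting error only. In a library sum, fewer cells with the transcript and less transcript per cell cannot be told apart.

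Serpina1c was the most counted copy in both libraries, with 1110 UMIs (75.1 CPM) in the Sox9cKO library and 78 UMIs (6.20 CPM) in the Sox9con library, a log2 ratio of 3.60 (3.27 to 3.95). Serpina1b came next in the Sox9cKO library, with 614 UMIs (41.5 CPM) against 6 UMIs (0.477 CPM), a log2 ratio of 6.45 (5.31 to 7.90). Serpina1e had 212 UMIs (14.3 CPM) against 6 UMIs (0.477 CPM), a log2 ratio of 4.91 (3.77 to 6.37). These 3 copies reached the minimum of 200 UMIs over both libraries used for all genes, and all 3 were at least 2-fold higher in the Sox9cKO library, as were 2.04% of the 9541 genes above that minimum. They passed the minimum through their Sox9cKO counts and were chosen for those counts, so nothing is read from that share.

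Serpina1a and Serpina1d stayed below that minimum. Serpina1a had 150 UMIs (10.1 CPM) in the Sox9cKO library and 1 UMI in the Sox9con library, a log2 ratio of 7.0 with a counting interval of 4.5 to 12.31. Serpina1d had 63 UMIs (4.26 CPM) against 1 UMI, a log2 ratio of 5.75 with an interval of 3.21 to 11.07. With a single UMI in the Sox9con library, neither ratio is well fixed.

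The wells of the first barcoding round, 5 for the Sox9cKO library and 4 for the Sox9con library, give a technical spread. The summed level was 175 CPM in well A11, 132 in A12, 182 in B1, 110 in B2 and 141 in B3 of the Sox9cKO library. Its level in the Sox9con library was 4.93 CPM in D9, 8.15 in D10, 12.7 in D11 and 5.74 in D12. Every Sox9cKO well lay above every Sox9con well, with log2 ratios of 3.12 to 5.21 over the 20 pairs. Between Sox9cKO wells Serpina1b ran from 36.5 to 48.4 CPM, and Serpina1c from 45.8 CPM in B2 to 101.5 in A11. Each Sox9con well held few: Serpina1b had 1 or 2 UMIs in each and Serpina1c 16 to 26. The 8 sublibraries, taken from the cell barcodes, hold cells of both groups. They gave 96.2 to 181 CPM for Sox9cKO cells and 2.34 to 12.3 CPM for Sox9con cells. Wells are not animals, and each well holds cells of 1 library, so wells and libraries cannot be told apart.

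**Figure D1:**
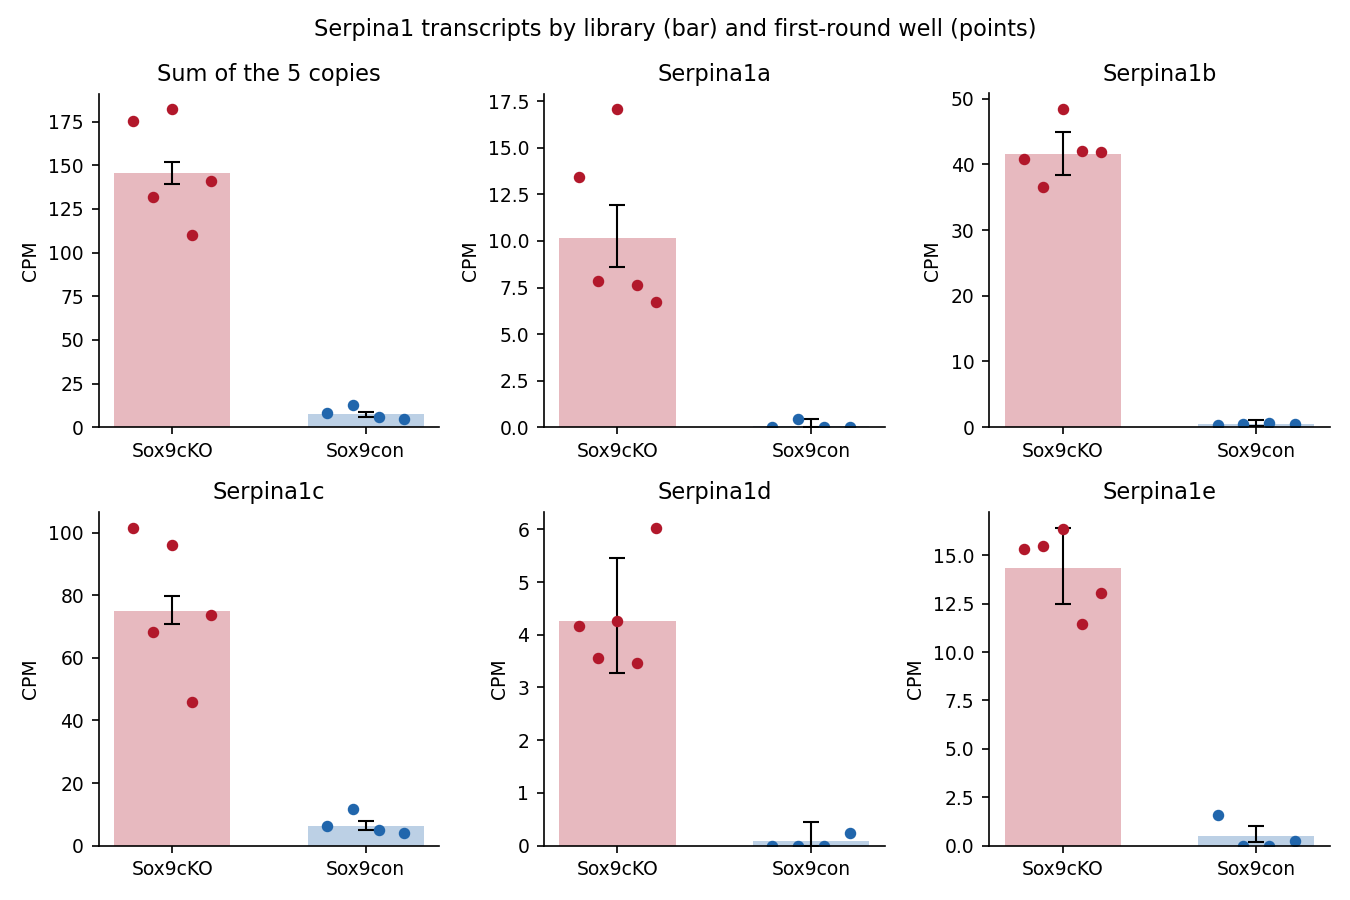
Level of the 5 copies together and of each copy in CPM (linear axes from 0) for the Sox9cKO and Sox9con libraries. Bars are library values with exact 95% Poisson intervals and points are wells; for the sum, the 5 Sox9cKO wells lie at 110 to 182 CPM and the 4 Sox9con wells at 4.93 to 12.7 CPM.

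The mix of copies differed between the libraries. In the Sox9cKO library, Serpina1c gave 51.7% of the Serpina1 UMIs (exact 95% binomial interval 49.5 to 53.8), Serpina1b 28.6%, Serpina1e 9.87%, Serpina1a 6.98% and Serpina1d 2.93%. Serpina1c gave 84.8% (75.8 to 91.4) and Serpina1b 6.52% (2.43 to 13.7) in the Sox9con library. By well, the share of Serpina1c was 41.5% to 57.9% in the Sox9cKO library and 76.9% to 92.9% in the Sox9con library, so that the wells did not overlap.

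Within the Sox9cKO library the mix also went with the level in the cell. In cells with 1 Serpina1 UMI, Serpina1c gave 73.5% (66.2 to 80.0) of those UMIs and Serpina1b 14.7% (9.75 to 20.9). In cells with 2 to 4 UMIs the shares were 64.0% and 22.6%. In cells with 5 or more they were 43.9% (41.3 to 46.6) and 32.7% (30.2 to 35.2), and the share of Serpina1e went from 2.94% in cells with 1 UMI to 12.3% in cells with 5 or more. Cells of the Sox9con library rarely held more than 1 UMI, so libraries compared at the same level rest on few counts. Among cells with 1 UMI, Serpina1c gave 36 of 42 UMIs (85.7%, 71.5 to 94.6) in the Sox9con library, an interval that overlaps that of the Sox9cKO library. Among cells with 2 to 4 UMIs it gave 37 of 40 (92.5%, 79.6 to 98.4), above the interval of 59.9% to 67.9% in the Sox9cKO library.

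**Figure D2:**
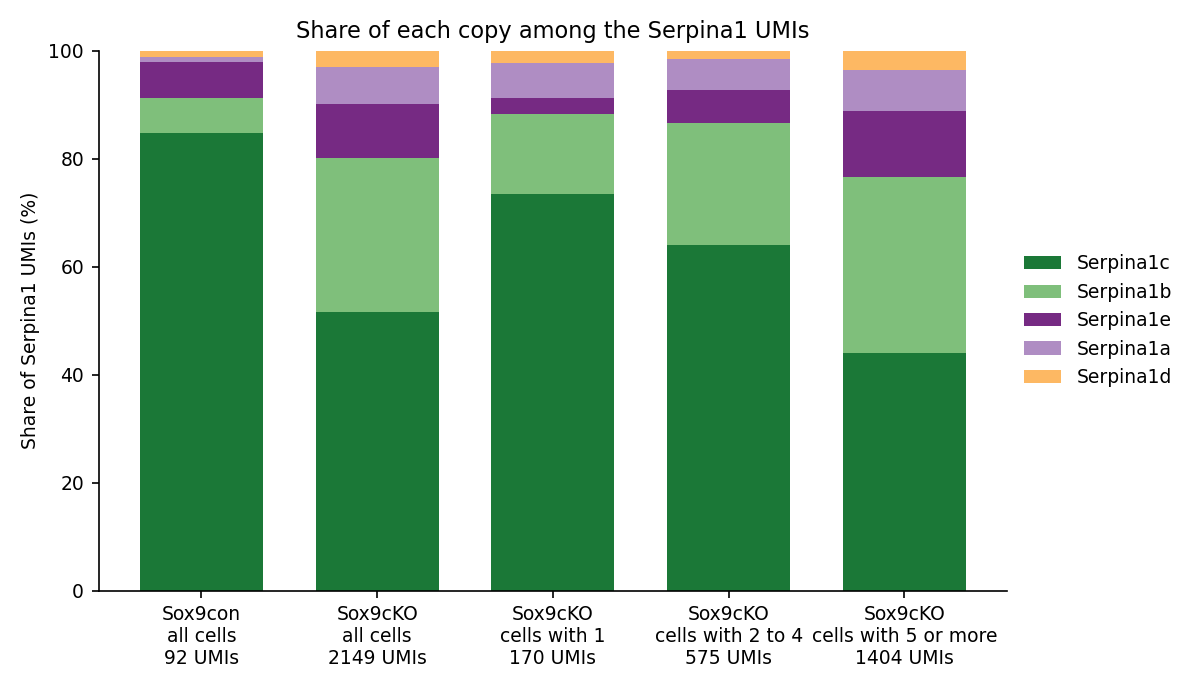
Share of each copy among all Serpina1 UMIs (percent, stacked) in the Sox9con and Sox9cKO libraries, and in Sox9cKO cells with 1, 2 to 4 and 5 or more Serpina1 UMIs. Serpina1c makes up 84.8% in the Sox9con library and goes from 73.5% to 43.9% across the 3 groups of Sox9cKO cells, while Serpina1b goes from 14.7% to 32.7%.

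A minority of cells held the transcripts. At least 1 Serpina1 UMI was found in 536 of 2712 cells of the Sox9cKO library (19.8%, 18.3 to 21.3) and in 60 of 3505 cells of the Sox9con library (1.71%, 1.31 to 2.20). Because the Sox9cKO cells held more UMIs, each cell was also thinned to 2000 UMIs, leaving out 169 Sox9cKO and 616 Sox9con cells with fewer. The shares were then 13.1% (11.8 to 14.5) and 1.07% (0.730 to 1.52). The thinned share lay between 9.60% and 16.9% in the 5 Sox9cKO wells and between 0.865% and 1.25% in the 4 Sox9con wells, with no overlap.

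The UMIs were unevenly spread over the positive cells. In the Sox9cKO library 170 cells held 1 UMI, 212 held 2 to 4 and 154 held 5 or more, and the highest cell held 35. The 154 cells with 5 or more carried 65.3% of the Serpina1 UMIs, and the top 10% of all cells carried 83.3%. Among Sox9con cells 42 held 1 UMI, 16 held 2 to 4 and 2 held 5. Positive cells of the Sox9cKO library had a median of 6386 UMIs against 4787 in cells with none, and their median mitochondrial share was 5.42% against 5.94%.

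Several copies were often found in the same cell. Of the 536 positive Sox9cKO cells, 147 held 2 copies, 74 held 3, 38 held 4 and 9 held all 5, so that 268 (50%, 45.7 to 54.3) held more than 1 copy. Among the 366 cells with at least 2 Serpina1 UMIs the share was 73.2% (68.4 to 77.7). Of the positive Sox9con cells 3 of 60, and 3 of the 18 with at least 2 UMIs, held 2 copies. At 2000 UMIs per cell, 115 of 333 positive Sox9cKO cells (34.5%) held more than 1 copy.

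Serpina1c was the usual companion of the other copies. A Serpina1c UMI was found in 79.9% of the 244 Sox9cKO cells with Serpina1b and in 10.9% of cells without it. The corresponding shares were 81.9% and 14.3% for Serpina1a, 81.3% and 16.0% for Serpina1d, and 88.9% and 14.2% for Serpina1e. After thinning, Serpina1c was found in 57.5% of cells with Serpina1b and 7.39% of cells without it. Serpina1c was the only copy in 213 cells and Serpina1b the only copy in 34, while 71 positive cells held no Serpina1c. The part that reads shared between near-identical copies play in finding them together was not tested.

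The positive cells were concentrated in a few groups of cells. For clustering, all kept cells were pooled and the 5 copies and Sox9 were left out, and the clusters were named only from marker lists. A total of 10 of 12 clusters were biliary-like by 12 or more of 15 biliary markers at 50 CPM or more, and the other two were endothelial-like and mesenchymal-like. Most biliary-like clusters, the 4 that hold nearly all Serpina1 UMIs included, were led by 10 genes that include no biliary marker, and clusters 3, 5, 7 and 8 each had 1 marker of another class among theirs, which in cluster 3 was the mesenchymal marker Acta2. Clusters are therefore compared by number. Other genes of the same cells defined the clusters, so the differences between clusters are a description.

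In the Sox9cKO library, cluster 3 (521 of its cells, 5 of the Sox9con library) held a Serpina1 UMI in 335 cells (64.3%, 60 to 68.4), at 487 CPM. Its leading genes include Hp (haptoglobin), Hpx (hemopexin) and Fst (follistatin). Cluster 0 (720 Sox9cKO cells, 2 Sox9con cells), led by the tight junction gene Cldn14, held one in 172 cells (23.9%, 20.8 to 27.2), at 100.4 CPM. These 2 clusters carried 97.2% of the library's Serpina1 UMIs against 51.3% of all its UMIs. Outside them 29 of 1471 Sox9cKO cells (1.97%) were positive. Both clusters are almost made of a single library, so cell state and library cannot be told apart there.

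Serpina1 was found mainly in clusters 11 and 9 of the Sox9con library. Cluster 11 held it in 29 of 711 cells (4.08%, 2.75 to 5.81), at 15.8 CPM, and cluster 9 in 21 of 417 cells (5.04%, 3.14 to 7.60), at 27.7 CPM. Together they carried 83.7% of the library's Serpina1 UMIs against 30.7% of all its UMIs. The Sox9cKO cells of cluster 9 gave 9 positive of 86 (10.5%, 4.90 to 18.9), at 120.1 CPM, with 39 UMIs. Of those 39 UMIs 16 (41.0%) were Serpina1b, against 1 of 37 (2.70%) in the Sox9con cells of the same cluster. The 39 UMIs lie in 9 cells, and a single cell of the Sox9cKO library held up to 15 Serpina1b UMIs. Few cells can therefore set this share. Cluster 1, shared by both libraries, was low in both, with 10 of 715 Sox9cKO cells (1.40%) and 2 of 627 Sox9con cells (0.319%).

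Endothelial cells do not make alpha-1-antitrypsin in quantity, and the endothelial-like cells give a background level. A Serpina1 UMI was found in 3 of 85 endothelial-like Sox9cKO cells (3.53%, 0.734 to 9.97, median depth 2399 UMIs) and in 3 of 124 endothelial-like Sox9con cells (2.42%, 0.502 to 6.91, median 2388.5). The shares in Sox9cKO clusters 3 and 0 lie above that interval, also at 2000 UMIs per cell, where they were 47.0% (42.6 to 51.5) and 12% (9.66 to 14.6) against 1.79% (0.0452 to 9.55) in endothelial-like Sox9cKO cells. Those in Sox9con clusters 9 and 11 overlap it, and so do the 1.71% of all Sox9con cells, so the Sox9con shares cannot be read as expression beyond background from this comparison. The shares of the Sox9con clusters 1 and 5, at 0.319% and 0.283% (3 of 1060 cells), were lower than those of clusters 9 and 11, with intervals that do not overlap. Of the 7 Serpina1 UMIs in endothelial-like Sox9con cells 6 were Serpina1e, 5 of them in 1 cell of well D10, and 0 were Serpina1c. Serpina1c gave 34 of 37 UMIs in Sox9con cluster 9 and 38 of 40 in Sox9con cluster 11. Whether this mix sets those clusters apart from background was not tested. Without the endothelial-like and mesenchymal-like clusters, Serpina1e was at 0 UMIs in the Sox9con library, and its log2 ratio was at least 5.89 against 3 UMIs.

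Albumin, the most abundant plasma protein, was highest in Sox9cKO clusters 0, 3 and 9 (1020, 927 and 770 CPM), as was Serpina1. Among Sox9con clusters, cluster 9 was highest in both. Between clusters and libraries, however, Alb and Serpina1 did not keep the same proportion. Alb stood at 927 CPM in Sox9cKO cluster 3 and at 921 CPM in the Sox9con cells of cluster 9, with Serpina1 at 487 and 27.7 CPM. Per 100 Alb UMIs there were 52.5 Serpina1 UMIs in Sox9cKO cluster 3, 9.84 in Sox9cKO cluster 0, 3.0 in Sox9con cluster 9, 2.37 in Sox9con cluster 11 and 0.256 in Sox9con cluster 5. These are counts of transcripts of unlike length, so only their change between clusters can be compared.

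**Figure D3:**
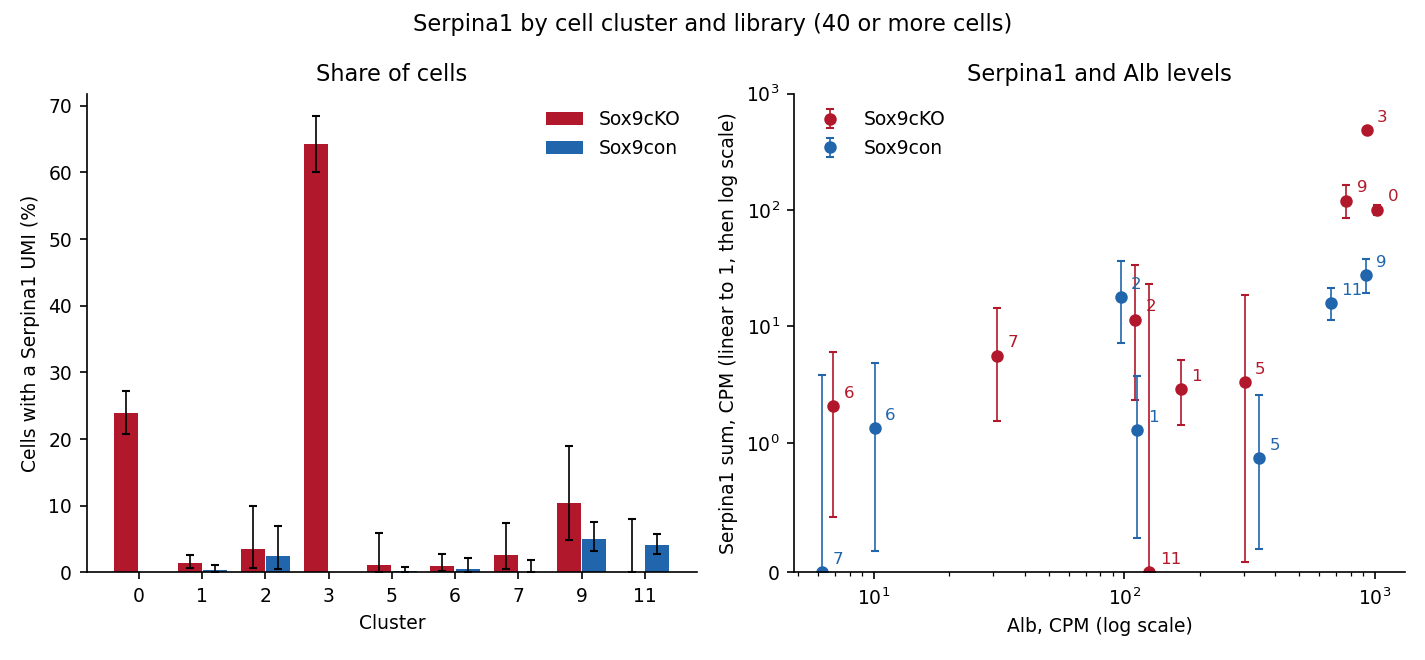
Left, percent of cells with a Serpina1 UMI by cluster and library (exact 95% binomial intervals). Right, summed Serpina1 level against Alb level in CPM per cluster and library (exact 95% Poisson intervals, Alb axis logarithmic, Serpina1 axis linear up to 1 and logarithmic above); Sox9cKO cluster 3 and Sox9con cluster 9 share an Alb level of 927 and 921 CPM while Serpina1 is at 487 and 27.7 CPM.

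Cells with a Serpina1 UMI were set against the cells with none of the same library. They were picked by those counts, and several cell groups are mixed in each set, so the ratios describe the cells and are not tested. In the Sox9cKO library 366 of 9605 genes with at least 100 UMIs (3.81%) were at least 2-fold higher in positive cells, 343 of them in all 5 wells, and 507 (5.28%) were at least 2-fold lower. In the Sox9con library, with 60 positive cells, 547 of 9399 genes (5.82%) were at least 2-fold higher, of which 397 had an interval above 0 and 218 were higher in all 4 wells, and 601 (6.39%) were at least 2-fold lower, of which 413 had an interval below 0.

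Genes of other liver plasma proteins led the Sox9cKO ranking. Ahsg, encoding fetuin-A, was at 105 CPM in positive cells and 3.08 in the rest, a log2 ratio of 5.10 (4.59 to 5.65). Hp, which binds free haemoglobin, had a log2 ratio of 4.94 (4.62 to 5.28), from 239 CPM in positive and 7.79 CPM in zero cells. Hpx, which binds haem, followed at 4.02, Fgb (fibrinogen beta chain) at 3.90, and Trf, the iron carrier transferrin, at 3.73. Serpina6, which encodes the corticosteroid carrier, was at 30.5 against 2.17 CPM (log2 ratio 3.81). Serpina10, an inhibitor of blood coagulation, stayed below the minimum of 100 UMIs, with 61 UMIs in positive cells and 7 in the rest.

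The 20 genes with the highest ratios held further plasma proteins, namely the complement protease C1s1 (3.33), angiotensinogen Agt (2.94) and plasminogen Plg (2.93). Others were the activin antagonist Fst (147 against 13.8 CPM, log2 ratio 3.41) and the adhesion molecule Cdh2 or N-cadherin (3.37). Fgf13 (3.07), the stem cell receptor Lgr6 (3.0), the sodium channel Scn7a (2.99) and the oxidase subunit Cybb (2.72) were also among them. Tmem72 (3.46), Stxbp5l (3.10), Adamtsl1 (3.03), Uggt2 (2.88) and D530033B14Rik (3.64) complete them. All 20 were higher in positive cells in each of the 5 wells.

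Ahsg again had the highest ratio in the Sox9con library, with 27 UMIs in positive cells and 110 in the rest (112 against 8.91 CPM, log2 ratio 3.65, 2.99 to 4.27). It was followed by the glutamate receptor gene Grik4 (3.06), the bradykinin receptor Bdkrb2 (2.90), Adamtsl1 (2.90), Zfp13 (2.90), Cdh2 (2.87), Nos2, the inducible nitric oxide synthase (2.86), Fam171b (2.86), Tnfrsf19 (2.80) and Scin (2.77). These rest on 12 to 34 UMIs in positive cells. Bdkrb2 and Cdh2 were higher in positive cells in all 4 wells, Zfp13 in 2, Grik4 in 1 and the others in 3. Ahsg, Cdh2 and Adamtsl1 are in the leading genes of both libraries. Of 9084 genes tested in both, 120 were at least 2-fold higher in both, which is 48.2% of the 249 called in the Sox9cKO library and 24.8% of the 483 called in the Sox9con library. Of all 9084 genes, 2.74% were called higher among Sox9cKO cells and 5.32% among Sox9con cells. For genes at least 2-fold lower the overlap was 169, or 37.6% of 450 and 28.1% of 601, where 4.95% of all 9084 genes were called lower among Sox9cKO cells and 6.62% among Sox9con cells.

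Of the list of 32 liver plasma protein genes, 22 reached 100 UMIs in the Sox9cKO library, and 19 of the 22 were at least 2-fold higher in positive cells and none at least 2-fold lower. Over all genes 3.81% were at least 2-fold higher and 5.28% lower. The median log2 ratio of the 22 was 2.11, against -0.02 over all genes. The lowest were Apoa1 at 0.09, Ambp at 0.17 and Ttr at 0.89. In the Sox9con library 10 of 14 were at least 2-fold higher, where 5.82% of all genes were. Their median was 1.59 against 0 over all genes. Gc, the vitamin D carrier, was at 588 against 90.7 CPM in the Sox9cKO library and 58.1 against 10 CPM in the Sox9con library. Vtn, the adhesive protein vitronectin, was at 541 against 95.8 CPM and 53.9 against 8.99 CPM. The log2 ratios of Gc were 2.70 and 2.53 and those of Vtn 2.50 and 2.58. C3 was higher in positive cells of the Sox9cKO library (1.13) and stood at 0.10 in the Sox9con library (-0.21 to 0.39).

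**Figure D4:**
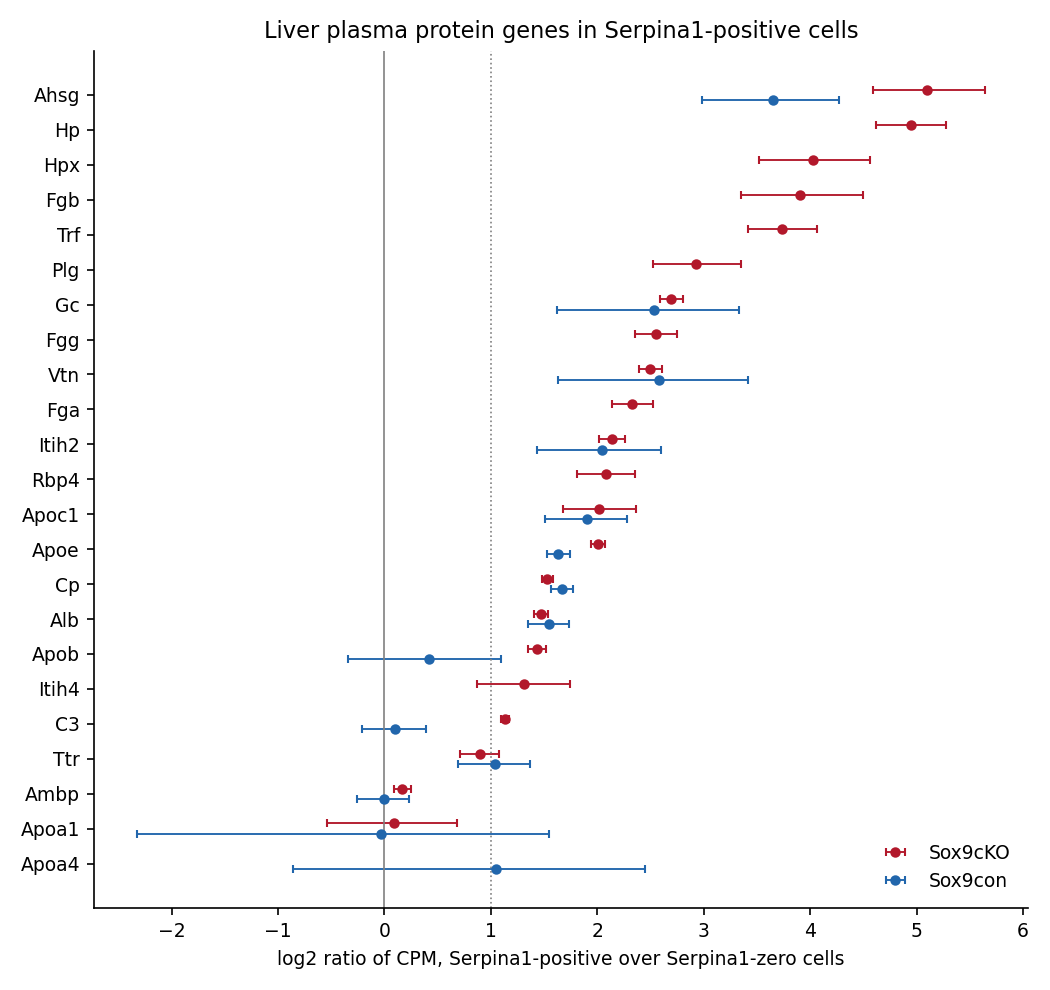
Log2 ratio of CPM in Serpina1-positive over Serpina1-zero cells for liver plasma protein genes with at least 100 UMIs, by library, with exact conditional 95% intervals; the solid line marks 0 and the dotted line 2-fold. In the Sox9cKO library 19 of 22 genes are at or beyond 2-fold, from Ahsg at 5.10 down, and in the Sox9con library 10 of 14. Over all genes 3.81% (Sox9cKO) and 5.82% (Sox9con) were at least 2-fold higher.

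The levels of these genes also differed with the number of Serpina1 UMIs in a Sox9cKO cell. Hp was at 7.79 CPM in cells with none, 65.6 in cells with 1, 152 in cells with 2 to 4 and 468 in cells with 5 or more. Ahsg went from 3.08 to 17.9, 49.1 and 234 CPM over the same groups. Alb differed less, at 397, 910, 1111 and 1233 CPM, and Vtn was at 95.8, 472, 542 and 591 CPM. Median depth was 4787, 5406, 6346 and 7874.5 UMIs in these groups, and a deeper cell is more likely to show a Serpina1 UMI.

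The same comparison was made within clusters, where fewer genes reached 100 UMIs. In Sox9cKO cluster 3, 335 positive and 186 zero cells differed by at least 2-fold in 64 of 5221 genes, 40 higher and 24 lower. There the log2 ratio was 2.54 (1.98 to 3.16) for Ahsg, 2.56 (2.19 to 2.95) for Hp, 2.09 for Trf, 0.94 for Gc and 0.65 for Alb. In cluster 0, with 172 positive and 548 zero cells, 40 of 5780 genes were at least 2-fold higher and 94 lower. Ahsg had 28 UMIs in the positive and 3 in the zero cells of cluster 0, Hp 28 and 10, and Vtn 776 and 767, a log2 ratio of 1.41 (1.27 to 1.56) for Vtn. Fst was higher in positive cells of both clusters, at 0.94 and 2.12, whereas Cdh2 stood at 1.53 (1.11 to 1.97) in cluster 3 and at -0.70 (-2.13 to 0.51) in cluster 0. Among Sox9con cells, 47 genes were at least 2-fold higher and 175 lower of 2706 in cluster 9, and 73 higher and 251 lower of 4319 in cluster 11. In Sox9con cluster 11 Vtn (3 UMIs in positive and 68 in zero cells) stood at -0.06 and Trf (1 and 20 UMIs) at 0.12, both with intervals that include 0.

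Over all cells of a library, keratins and Epcam were lower in positive cells, while Spp1 and Sox9 were higher. Krt19, a keratin of bile ducts, was at 393 against 1088 CPM in the Sox9cKO library (log2 ratio -1.47) and at 560 against 1599 CPM in the Sox9con library (-1.51). Krt7 stood at -1.29 and -1.86, and the adhesion molecule Epcam at -0.73 and -0.19. Spp1, or osteopontin, stood at 0.70 and 0.57. Sox9 was at 145 against 111 CPM in the Sox9cKO library (0.38, 0.23 to 0.53) and at 203 against 140 CPM in the Sox9con library (0.54, 0.09 to 0.94). Within clusters Sox9 stood at 0.35 (0.07 to 0.62) in Sox9cKO cluster 0 and 0.13 (-0.16 to 0.42) in Sox9cKO cluster 3. It stood at 0.13 (-0.59 to 0.77) in Sox9con cluster 9 and -0.04 (-0.65 to 0.52) in Sox9con cluster 11. In the same clusters and order Spp1 stood at 0.31, 0.49, 0.16 and 0.03, and only the last interval included 0. Krt19 stood at -0.81, -0.66, -0.46 and -0.68 in that order, with an interval including 0 in Sox9con cluster 9. Epcam differed less within clusters, at -0.23, -0.16, -0.12 and 0.24, with intervals including 0 in Sox9con clusters 9 and 11. All 15 biliary markers were found in positive cells of both libraries, summing to 8655 CPM against 9611 CPM in the zero cells of the Sox9cKO library and to 15390 against 14958 CPM in the Sox9con library. Spp1 alone gave 2876 and 1770 CPM of the Sox9cKO sums and 5909 and 3968 CPM of the Sox9con sums, so these sums lean on 1 gene.

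**Figure D5:**
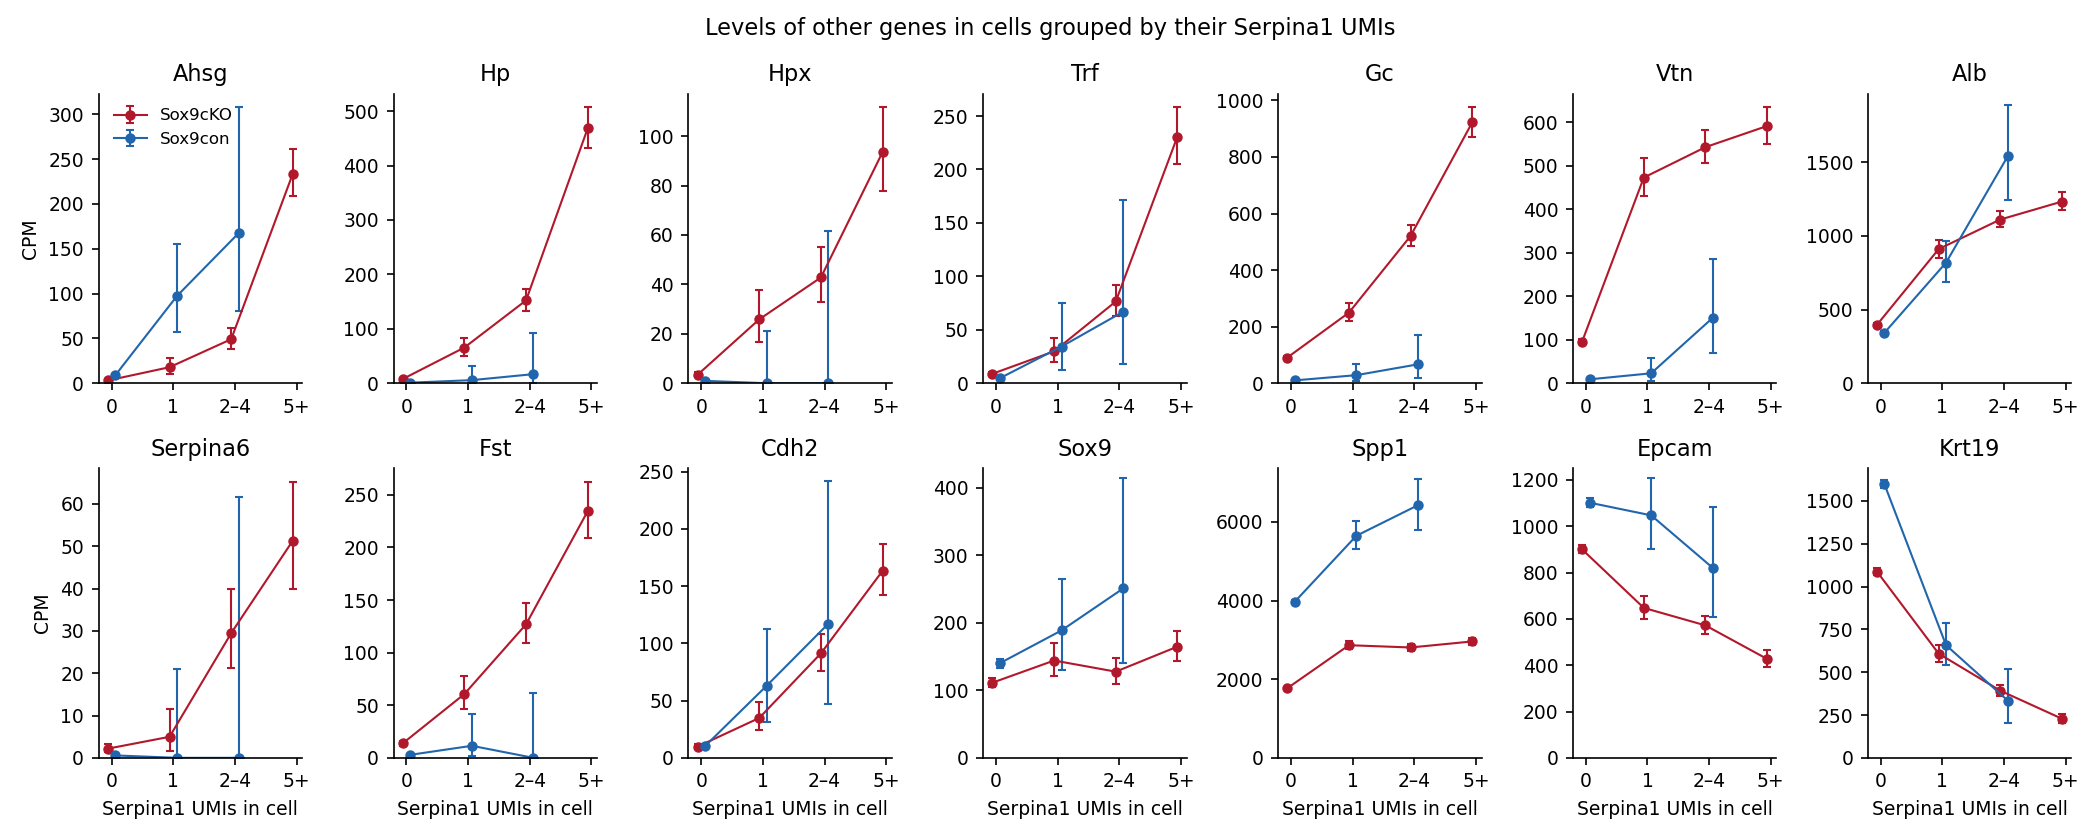
Level of 14 genes in CPM (linear axes from 0, exact 95% Poisson intervals) in cells grouped by their Serpina1 UMIs, for both libraries; the 2 Sox9con cells with 5 or more UMIs are left out. In the Sox9cKO library Hp goes from 7.79 to 468 CPM and Krt19 from 1088 to 228 CPM between cells with none and cells with 5 or more.

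The genes with the lowest ratios in Sox9cKO were Gnat3, a taste G protein (0 UMIs in positive cells and 288 in the rest), Kcnq3, Rgs6, Atp2a3, the adhesion receptor Selp, Fyb, Rgs13, St18, Mctp1 and Lrmp. Each had at most 10 UMIs in the positive cells. Gnat3, Rgs13, Kcnq3 and Fyb are among the leading genes of cluster 8, a group of 17 Sox9cKO cells with no Serpina1 UMI, and Selp of the endothelial-like cluster.

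Markers of hepatocytes were looked at beside these results. Of 18 hepatocyte markers 12 were found in positive Sox9cKO cells and 6 were at 0, namely Cyp2e1, Cyp2c29, Hpd, Asgr1, Mup3 and Hal. Those 6 had at most 9 UMIs in the zero cells, so their zeros do not set the positive cells apart. All 18 markers summed to 1759 CPM in positive and 924 CPM in zero cells, and to 660 against 528 CPM without Alb. In the Sox9con library 12 of 18 were at 0 in positive cells, which hold 241171 UMIs in all, and the same 12 were at 0 to 5.67 CPM in zero cells, too low to be told from 0 at that depth. The sum without Alb was there 340 CPM in positive against 461 CPM in zero cells. Cps1, a urea cycle enzyme of hepatocytes, was at 11.5 against 11.8 CPM in the Sox9cKO library. Tat, which breaks down tyrosine, had 78 UMIs in positive and 12 in zero Sox9cKO cells, and G6pc, which releases glucose, 55 and 15. Leukocyte markers other than those of macrophages summed to 5.36 CPM in positive and 61.8 CPM in zero Sox9cKO cells, but Fyb alone gave 10 of those 20 and 630 of those 683 UMIs. Endothelial markers summed to 66.4 and 362 CPM. Macrophage markers summed to 55.4 and 32.0 CPM, with 9 of 11 at 0 in positive cells and Csf1r giving 192 of 207 UMIs in positive and 291 of 353 in zero cells, and their part in the result was not tested. In the Sox9con library endothelial markers were higher in positive cells, at 726 against 467 CPM, and the part of this in the result was not tested.

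Known regulators of liver plasma protein genes differed less than the genes themselves. Of 16 on the list 14 were tested in the Sox9cKO library, and 2 were at least 2-fold higher in positive cells. Of all genes 3.81% were, and the median log2 ratio of the list was -0.03. The 2 were Onecut1 at 1.24 (1.01 to 1.47) and Nr5a2 at 1.22 (1.10 to 1.33), and Prox1 stood at 0.85 and Cebpa at 0.78. Hnf4a stood at 0.16 (0.09 to 0.24), Foxa2 at -0.33 (-0.92 to 0.23) and Onecut2 at -0.63. Among Sox9con cells none of 13 was at least 2-fold apart. Of all genes there 5.82% were 2-fold higher and 6.39% lower, so nothing is read from that count. Hnf4a was lower in positive Sox9con cells, at 253 against 364 CPM (-0.52, -0.91 to -0.16). Between the libraries, Hnf4a was at 471 CPM in Sox9cKO and 362 CPM in Sox9con.

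Genes that serve the export and folding of the protein were looked at next. All 16 on the list were tested in the Sox9cKO library and none was 2-fold apart, where 3.81% of all genes were 2-fold higher and 5.28% lower, and their median log2 ratio was 0.14. Lman1, the cargo receptor that carries alpha-1-antitrypsin out of the endoplasmic reticulum, was at 0.40 (0.18 to 0.62), its partner Mcfd2 at 0.18 and Surf4, another cargo receptor, at 0.21. Os9, which takes part in the disposal of misfolded proteins, was the highest at 0.51, followed by the chaperone Calr at 0.41. Among Sox9con cells Lman1 stood at -0.65 (-1.86 to 0.34) and Os9 at -0.06 (-0.78 to 0.57), with 8 and 20 UMIs in positive cells. Edem3, an enzyme of the same disposal route, was the sole member at least 2-fold higher in the Sox9con library, at 1.02 (0.51 to 1.49). Of all genes there 5.82% were. Edem3 was at 87.6 CPM in both positive and zero Sox9cKO cells.

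Receptors of acute phase signals followed. Il6ra, the interleukin-6 receptor, was at 27.8 against 13.3 CPM in the Sox9cKO library (1.06, 0.69 to 1.44) and rested on 5 UMIs in positive cells of the Sox9con library. It was the sole member of that list, of 10 tested, to reach 2-fold in Sox9cKO, where 3.81% of all genes did, so nothing particular to the list is read from it. Il1r1, the interleukin-1 receptor, was at 0.78 in Sox9cKO and 2.11 (1.57 to 2.61) in Sox9con, and Osmr, the oncostatin M receptor, at 0.42 and 0.48. Serpina3n, an acute phase serpin of mouse liver, had 3 UMIs in each whole library.

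The neutrophil proteases that alpha-1-antitrypsin inhibits had few or no UMIs. Elane and Ctsg had none in the Sox9cKO library and Prtn3 had 9, all in Serpina1-zero cells. In the Sox9con library the positive cells held none of the 3, and the zero cells held 33 UMIs of Prtn3 and 1 of Elane. Positive Sox9con cells hold 241171 UMIs in all, too few for these zeros to set them apart. Of 16 serine proteases 8 were tested in Sox9cKO. Hpn (hepsin) was the sole one at least 2-fold higher (1.20, 0.94 to 1.47), against 3.81% of all genes. Tmprss4 and Cela1 were at least 2-fold lower, at -3.61 and -2.71, against 5.28% of all genes. Of the other serpin genes on chromosome 12, Serpina1f had 0 UMIs in both libraries, with upper limits of 0.25 and 0.293 CPM. Serpina6 had 138 UMIs (9.34 CPM) in Sox9cKO and 7 (0.556 CPM) in Sox9con, and Serpina10 had 68 (4.6 CPM) and 19 (1.51 CPM). Of 34 other serpins 12 were tested in the Sox9cKO library. Of these 4 were at least 2-fold higher in positive cells, among them Serpina6, Serping1 (1.70) and Serpinb6b (1.28). At least 2-fold lower were 3, Serpinb5, Serpinb1a and Serpinb8, where over all genes 3.81% were higher and 5.28% lower. The counts include EGFP, an added reporter sequence, at 15 UMIs in Sox9cKO (4 in positive cells) and 7 in Sox9con (0 in positive cells).

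Between the libraries as a whole, 14 of 21 tested liver plasma protein genes were at least 2-fold higher in Sox9cKO and 2 at least 2-fold lower, with a median log2 ratio of 2.46 against -0.07 over all genes. Over all 9541 genes, 195 were at least 2-fold higher (2.04%) and 182 lower (1.91%). Scaled with edgeR's TMM factor the split was 238 and 120, and with DESeq2 size factors 272 and 103, which move all log2 ratios by 0.10 and 0.16.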

How the data were processed

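The authors deposited whole-number UMI counts per cell and gene, with gene and cell tables, for each library. Per the submitters' processing notes the genome build is GRCm39. The aligner, the annotation release and the treatment of reads matching several genes are not given in the sources used here. Cells were barcoded with the Evercode Whole Transcriptome kit, primed with random hexamers and oligo(dT), per the labels' protocols.

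From these counts, cells with at least 500 genes, 1000 UMIs and at most 15% mitochondrial UMIs were kept, which left 2712 cells with 14779016 UMIs in the Sox9cKO library and 3505 with 12584912 UMIs in the Sox9con library. The libraries share 0 barcodes. Scrublet (scanpy 1.11.5) called doublets in 3 of 6362 cells (0.0472%), which were removed; at so low a share the caller has not worked. Clustering used 2000 variable genes, 30 principal components, 15 neighbours and Leiden resolution 0.5. A cluster was named for the class with the largest share of markers at 50 CPM or more, with at least 3.

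Counts were summed per library. Ratios compare CPM, with exact 95% conditional intervals, and shares have Clopper-Pearson intervals. In positive over zero ratios a lower set with fewer than 3 UMIs was taken as 3, without letting the ratio change sign. Genes named were the 5 copies, the 20 (Sox9cKO) and 10 (Sox9con) highest and the 10 lowest (Sox9cKO) positive over zero ratios, a fixed set of genes, and the extremes of each list, while Tat and G6pc were named after their values were seen. The members and lists were chosen with earlier results of these data known. The ratio code was tested on simulated data. Scaling alternatives used edgeR 4.0.16 and DESeq2 1.42.0. Sequences are from GENCODE and RefSeq on GRCm38, another build than that of the counts, and all 5 copies matched by symbol. How the alternatives moved the values stands in the closing section. Some genes that meet the naming rule are not reported here.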

Additional observations from a re-analysis of the deposited data

How the results depend on the processing

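No paired analysis was possible because each group has 1 library. The summed log2 ratio between the libraries kept its direction under every alternative run, from 4.03 with cells thinned to 2000 UMIs to 4.47 with DESeq2 size factors, and from 4.11 to 4.56 with each well left out in turn. The 5 copies also stayed higher in the Sox9cKO library in all alternatives. Thinned, Serpina1a stood at 3.92, against 3 UMIs since the Sox9con library then had none. Serpina1e was at 7.07 without well D10. The share of positive cells was, for Sox9cKO and Sox9con, 13.1% and 1.07% thinned, 13.5% and 0.514% at 2 or more UMIs, and 40.9% and 4.43% in the 2 clusters that hold most Serpina1 UMIs, a setting chosen after seeing the data. Leaving out wells gave 19.4% to 20.4% and 1.56% to 1.86%. The top 10% of Sox9cKO cells held 81.0% of the UMIs with a stricter cell filter and 87.7% thinned (82.7% to 84.0% with wells left out), and 34.5% of positive cells held more than 1 copy thinned (47.8% to 51.4%). Genes at least 2-fold higher in positive Sox9cKO cells numbered 214 thinned, 239 with a minimum of 200 UMIs and 149 in the 2 clusters (315 to 343 with wells left out). In the Sox9con library, where few cells are positive, they numbered 1076 at 2 UMIs, 1512 at 5 UMIs, 934 and 284 with minimums of 50 and 200 UMIs, and 85 in the 2 clusters (468 to 542 with wells left out). Fewer cells or genes entered most of these; otherwise the cause was not tested. Genes at least 2-fold higher in the Sox9cKO library numbered 160 to 221 with wells left out; without well D9, 221 were higher and 406 lower. Shallow cells and the 92 Serpina1 UMIs of the Sox9con library limit what can be seen there.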
